A study of Mus musculus with 4 samples.

Results

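The genes described here encode the machinery that copies DNA in S phase: the factors that license and fire replication origins, the replicative helicase, the polymerases, the sliding clamp and its loader, and the enzymes that supply nucleotides. They were taken from a list of 44 symbols, with 1 probe set per gene (the probe set with the highest mean over the 4 arrays). All 44 had a value, out of 19938 genes with a value in the series, and 39 of the 44 had a group mean above the background limit of 5.21 on the log2 scale. That limit is the 95th percentile of the mean values of 1194 chemosensory receptor genes (olfactory and vomeronasal), whose use in marrow is not known.

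RNA came from bone marrow cells of C57BL/6 mice carrying Nes-gfp, a reporter in which the nestin promoter drives green fluorescent protein, and the cells were sorted as CD45-, CD31-, Ter119- and reporter positive. In the MPN group (for myeloproliferative neoplasm), 3 mice had been given marrow cells with a mutant JAK2 and Mx1-cre, a Cre transgene under an interferon-inducible promoter, 10 weeks before. The control group was 1 Nes-gfp mouse that had received control marrow cells, also 10 weeks before. The MPN transgenes were in the transplanted blood-forming cells and the reporter was in the host, so in both groups the sort was aimed at host stroma. The labels state neither the age of the mice nor an induction of Cre. Each array is labelled as 1 mouse, and the spread of control mice cannot be measured from 1 array.

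Before a cell copies its DNA, the origin recognition complex, Cdc6 and Cdt1 load rings of Mcm2 to Mcm7 onto origins. Cdc45 and the GINS complex then turn the rings into active helicases, and primase, polymerases, the clamp PCNA and its loader RFC follow at the fork. Most of these genes are transcribed at the start of S phase under the E2F factors, so in marrow their RNA is typical of dividing progenitors rather than of resting stroma.

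The array medians over all probe sets were 5.15, 5.16 and 5.09 in MPN mice, against 5.13 in the control mouse. The median gene was 0.179 higher (log2) in the MPN mice than in the control mouse, and the receptor genes that mark background were 0.254 higher, so differences of that size are not read as changes. The labelled cell type was not borne out by every marker: Nes was under the background limit in both groups, at 4.56, 3.92 and 4.26 in MPN mice, against 4.26 in the control mouse. Ptprc, which encodes CD45, was above that limit on each array, at 10.16, 9.46 and 10.40 in MPN mice, against 7.07 in the control mouse. In these bulk samples, fewer cells of a type and less RNA per cell cannot be told apart.

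The replication genes had a higher median difference than all genes, most of all in MPN mouse 3, and the difference was clearest in the helicase rings, the nucleotide-making enzyme Rrm2 and the clamp loader gene Rfc2. Their median log2 difference (MPN mean minus control) was 0.484, against 0.179 over all genes. Without MPN mouse 3 it was 0.325, against 0.221 over all genes. On every MPN array 23 of the 44 genes (52.3%) were higher than on the control array, against 46.8% of all genes, a share close to the background. That comparison depends on the scaling, with 18 of 44 (40.9%) against 22.6% of all genes when the arrays were aligned on the chemosensory receptor genes, and 21 of 44 (47.7%) against 31% after cyclic loess. It depends on the mice too, with 23 of 44 against 56.9% of all genes when MPN mouse 3 was left out. Among genes above the background limit the count was 22 of 39 (56.4%), against 36.9% of all such genes. A gene could pass that limit through its MPN mean alone, as did Cdc6, Mcm3, Mcm7, Rfc2, Pold2 and Ccne1 among the 22. The filtered share is therefore not independent of the difference. Only 2 of the 44, Rfc5 and Rpa3, were lower on every MPN array (4.55%), against 21.1% of all genes.

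At the adjusted threshold of 0.05, limma's test called 0 of the 44 genes, and it called 0% of all genes. At an unadjusted p under 0.05, 7 of the 44 genes (15.9%) were higher, against 3.97% of all genes, and 0 were lower, against 8.63% of all genes. The 7 were Mcm2, Mcm4, Mcm7, Pcna, Rfc2, Rpa2 and Rrm2. Without MPN mouse 3 the count was 5 of 44 (11.4%), against 8.98% of all genes. At least 2-fold higher on each MPN array were 3 of the 44 (6.82%), against 1.13% of all genes, namely Mcm7, Rfc2 and Rrm2. None was at least 2-fold lower on each, against 5.78% of all genes. The count of genes 2-fold higher was 8 (18.2%) with MPN mouse 1 left out, against 1.9% of all genes, and 7 (15.9%) with MPN mouse 2 left out, against 1.87%. When the arrays were aligned on the median of the chemosensory receptor genes, the median difference of the replication genes was 0.228, and that of all genes was -0.0778. The number higher at an unadjusted p under 0.05 was then 3 (6.82%), against 1.46% of all genes.

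**Figure D1:**
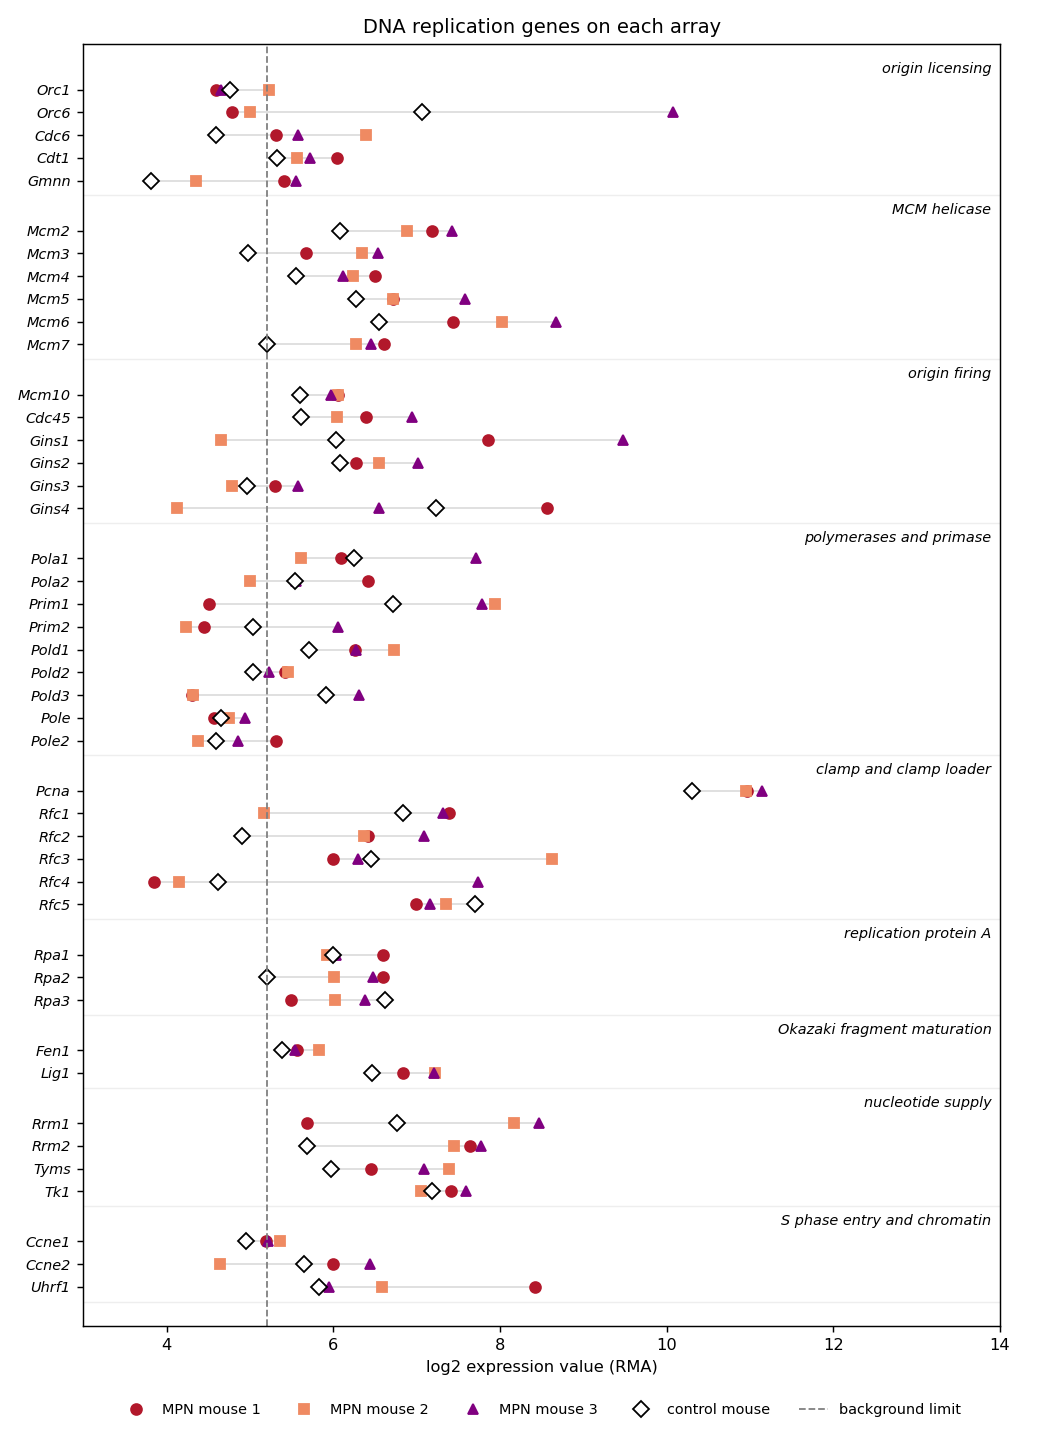
Log2 expression value (horizontal axis) of each of the 44 replication genes, grouped by role, with filled symbols for the 3 MPN mice and an open diamond for the control mouse. All 6 genes of the MCM helicase have their 3 filled symbols to the right of the diamond, while Orc6, Gins1, Gins4, Prim1 and Rrm1 have filled symbols far to both sides of it; the dashed line is the background limit of 5.21.

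Among the genes of origin licensing, the loading factor Cdc6 stood above the control in every MPN mouse, while Orc1 and Orc6 of the origin recognition complex overlapped it. Cdc6, the ATPase that brings the helicase to origins, was at 5.31, 6.40 and 5.57 in MPN mice, against 4.59 in the control mouse. Its difference was 1.17 (SE 0.52, limma adjusted p = 0.443). Cdt1, the partner of Cdc6 in loading, was at 6.04, 5.57 and 5.72 in MPN mice, against 5.32 in the control mouse. Its difference was 0.45 (SE 0.26, limma adjusted p = 0.481). The groups did not overlap for either gene, but the control value of Cdc6 lay under the background limit, and Cdt1 in MPN mouse 2 was 0.24 above the control mouse, less than the shift of the background genes.

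Gmnn, which encodes geminin, the inhibitor of Cdt1 that blocks a second round of licensing, was at 5.41, 4.35 and 5.56 in MPN mice, against 3.81 in the control mouse. Both group means of Gmnn lay under the background limit, so the size of its difference of 1.30 (SE 0.60) is uncertain. Orc1, the ATPase subunit of the origin recognition complex, was at 4.60, 5.22 and 4.65 in MPN mice, against 4.76 in the control mouse. Orc6, the smallest subunit of the complex, was at 4.79, 5.004 and 10.08 in MPN mice, against 7.06 in the control mouse. Both group means of Orc1 lay under the background limit, and its groups overlapped. The values of Orc6 split the MPN mice, with mouse 3 above the control mouse and the other two below it.

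The 6 subunits of the MCM helicase were all higher in the MPN mice, by steps of unequal size. All 6 were higher on every MPN array, against 46.8% of all genes, with differences between 0.73 and 1.49 and a median of 1.15. The SD over the MPN mice was at most 0.62, and it was 0.17 for Mcm7. All 6 remained above the control on each MPN array under every scaling that was tried. Leaving out a mouse could not change that count. Over the scalings and left-out mice the median difference was between 0.889 and 1.22.

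Mcm6 was at 7.44, 8.03 and 8.67 in MPN mice, against 6.55 in the control mouse, a difference of 1.49 (SE 0.57, adjusted p = 0.422 by limma). Mcm7 was at 6.61, 6.28 and 6.45 in MPN mice, against 5.21 in the control mouse, a difference of 1.24 (SE 0.21, adjusted p = 0.181 by limma). Mcm2 was at 7.18, 6.88 and 7.42 in MPN mice, against 6.08 in the control mouse, a difference of 1.08 (SE 0.28, adjusted p = 0.309 by limma). In these 3 genes the lowest MPN mouse stood at least 0.80 above the control mouse, and the control value of Mcm7 was at the background limit.

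Mcm3 was at 5.67, 6.35 and 6.53 in MPN mice, against 4.97 in the control mouse. Mcm4 was at 6.50, 6.23 and 6.11 in MPN mice, against 5.55 in the control mouse. Mcm5 was at 6.72, 6.72 and 7.59 in MPN mice, against 6.27 in the control mouse. Each of these subunits is part of the same ring, and each had its lowest MPN mouse between 0.45 and 0.70 above the control mouse. The control value of Mcm3 lay under the background limit, so the size of its difference is uncertain.

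The promoters of several of these genes carry the letters to which E2F factors bind, and those of the 4 genes with the largest differences among the carriers are shown for that reason. The letters searched were TTTCCCGC, TTTCGCGC, TTTGCCGC and TTTGGCGC, on both strands, in RefSeq windows (GRCm38.p6) of 250 bases before to 50 after a start site. Of the 44 genes, 35 had such a window, and 5 of the 35 had several, of which any with a match counted. In 24 of the 35 a window was set on the outer end of the gene as RefSeq bounds it. In capitals are the matched letters, and matches on opposite strands that overlap appear as 1 run. All but the Mcm3 stretch are the 200 bases before the window's start site, at chr1:128359706-128359905 on the minus strand for Mcm6, chr5:138171884-138172083 on the minus strand for Mcm7, and chr11:98907951-98908150 on the plus strand for Cdc6. For Mcm6 and Mcm3 that site is the outer end of the gene, while for Mcm7 and Cdc6 it lies 228 and 442 bases inside the gene's RefSeq bounds, so those stretches lie within the gene. The Mcm3 stretch is 27 bases that begin at base 20 from the start site, at chr1:20820267-20820293 on the minus strand, since its matches lay there.
Mcm6: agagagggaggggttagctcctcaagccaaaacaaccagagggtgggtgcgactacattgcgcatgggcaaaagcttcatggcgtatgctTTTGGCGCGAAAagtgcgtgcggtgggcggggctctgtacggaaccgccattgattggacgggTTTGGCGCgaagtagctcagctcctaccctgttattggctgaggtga
Mcm7: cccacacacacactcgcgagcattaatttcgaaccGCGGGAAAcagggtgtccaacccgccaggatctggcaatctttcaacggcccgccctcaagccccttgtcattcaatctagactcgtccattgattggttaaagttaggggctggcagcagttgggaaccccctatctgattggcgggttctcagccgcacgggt
Mcm3: GCGGGAAAacttgggaagtTTTGGCGC
Cdc6: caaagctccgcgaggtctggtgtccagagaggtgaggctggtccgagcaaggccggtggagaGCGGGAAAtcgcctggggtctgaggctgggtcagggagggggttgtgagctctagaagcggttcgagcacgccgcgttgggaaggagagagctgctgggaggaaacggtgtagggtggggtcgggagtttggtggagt

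The E2F-type letters were in the windows of 15 of the 35 replication genes (42.9%), against 3.48% of the 15614 measured genes with a window. Among the helicase genes they were in 4 of 5 windows, those of Mcm3, Mcm5, Mcm6 and Mcm7. The mitosis genes had them in 1 of 32 windows (3.12%). CCAAT, the letters bound by the factor NF-Y, on both strands, was in 22 of the 35 replication windows (62.9%), in 24 of the 32 mitosis windows (75%) and in 41.7% of all windows. The median log2 difference was 0.622 in the 15 replication genes with E2F-type letters and 0.315 in the 20 without, and every MPN array was above the control array in 9 of the 15 and in 10 of the 20. These matches describe the windows, and Rrm2, the gene with the largest difference of the 44, had none of these E2F-type letters in its window.

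Of the 6 genes that turn loaded rings into moving forks, Mcm10, Cdc45 and Gins2 were higher on every MPN array (50%, against 46.8% of all genes). Mcm10, which stimulates helicase activation, was at 6.05, 6.06 and 5.97 in MPN mice, against 5.60 in the control mouse. The SD of the MPN mice was 0.05, and the difference of 0.43 (SE 0.15) had a limma adjusted p of 0.409. Cdc45, a subunit of the active helicase, was at 6.40, 6.05 and 6.95 in MPN mice, against 5.61 in the control mouse. Gins2 was at 6.28, 6.55 and 7.02 in MPN mice, against 6.08 in the control mouse. In these genes the groups did not overlap, though the lowest MPN mouse of Gins2 was only 0.20 above the control mouse, less than the shift of the background genes.

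The other subunits of the GINS complex, which work as one unit, did not share a direction. Gins1 was at 7.85, 4.65 and 9.48 in MPN mice, against 6.03 in the control mouse. Gins4 was at 8.56, 4.12 and 6.54 in MPN mice, against 7.23 in the control mouse. Both had their lowest value in MPN mouse 2, under the background limit, and values on both sides of the control mouse. Gins3 was at 5.30, 4.79 and 5.58 in MPN mice, against 4.97 in the control mouse, and the groups overlapped near background.

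The polymerase and primase genes were the role with the smallest median difference, 0.116 over 9 genes. Of the 9, 2 were higher on every MPN array (22.2%), against 46.8% of all genes. Pold1, the catalytic subunit of the lagging-strand polymerase delta, was at 6.26, 6.73 and 6.27 in MPN mice, against 5.71 in the control mouse. Pold2, its second subunit, was at 5.41, 5.46 and 5.22 in MPN mice, against 5.04 in the control mouse. Pold3, an accessory subunit of the same enzyme, was at 4.31, 4.32 and 6.31 in MPN mice, against 5.91 in the control mouse. The first of these subunits stood 0.71 above the control (SE 0.28), the second 0.33 (SE 0.18), and Pold3 was above it in MPN mouse 3 alone.

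Pola1, the catalytic subunit of polymerase alpha, was at 6.09, 5.61 and 7.71 in MPN mice, against 6.25 in the control mouse. Prim1, the catalytic subunit of primase, was at 4.51, 7.94 and 7.79 in MPN mice, against 6.72 in the control mouse. Prim2, the large primase subunit, was at 4.45, 4.23 and 6.06 in MPN mice, against 5.04 in the control mouse. The groups overlapped for all 3, and both primase subunits were below the control mouse in MPN mouse 1, while in mouse 2 Prim1 was above it and Prim2 below it. The groups also overlapped for Pola2, the regulatory subunit of polymerase alpha, with a difference of 0.12 (SE 0.65). They overlapped too for Pole and Pole2, the catalytic and second subunits of the leading-strand polymerase epsilon, with differences of 0.10 and 0.25. The group means of Pole and Pole2 lay under the background limit.

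Pcna, the sliding clamp that holds polymerases on DNA, was higher in MPN mice by a small and even step. It was at 10.97, 10.95 and 11.15 in MPN mice, against 10.31 in the control mouse, a difference of 0.71 (SE 0.17, adjusted p = 0.288 by limma). A second probe set named for Pcna read 10.97, 10.94 and 11.13 in MPN mice, against 10.32 in the control mouse. The probe sets list the same transcripts and gave nearly the same values, so they are not independent measurements. After repeated quantile normalisation the difference was 0.446, and with the arrays aligned on the chemosensory receptor genes it was 0.457.

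The 5 subunits of the clamp loader RFC, which opens the PCNA ring, lay on both sides of the control. Rfc2 was at 6.42, 6.36 and 7.09 in MPN mice, against 4.91 in the control mouse, a 3.28-fold difference (log2 1.72, SE 0.39, adjusted p = 0.263 by limma). The control value of Rfc2 lay under the background limit, so the size of the fold is uncertain. Rfc5 was at 6.999, 7.35 and 7.16 in MPN mice, against 7.70 in the control mouse, a difference of -0.53 (SE 0.21, adjusted p = 0.433 by limma). For Rfc2 every MPN mouse was above the control mouse and for Rfc5 every one was below it. The size for Rfc5 depends on the scaling, at -0.127 after repeated quantile normalisation and -0.465 after cyclic loess.

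Rfc1, the large subunit, was at 7.39, 5.17 and 7.32 in MPN mice, against 6.84 in the control mouse. Rfc3 was at 5.99, 8.63 and 6.30 in MPN mice, against 6.46 in the control mouse. Rfc4 was at 3.84, 4.15 and 7.74 in MPN mice, against 4.62 in the control mouse. In each of these 3 genes 1 MPN mouse stood apart from the other two, and it was mouse 2 for Rfc1 (low) and Rfc3 (high) and mouse 3 for Rfc4 (high).

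Replication protein A coats single-stranded DNA at the fork as a complex of 3 subunits. Rpa2 was at 6.60, 6.01 and 6.48 in MPN mice, against 5.21 in the control mouse, a difference of 1.15 (SE 0.31, adjusted p = 0.324 by limma). Rpa3, the smallest subunit, was at 5.50, 6.03 and 6.39 in MPN mice, against 6.62 in the control mouse, a difference of -0.65 (SE 0.42). Its second probe set, at 3.63, 5.84 and 6.96 in MPN mice, against 6.58 in the control mouse, overlapped the control. The subunits thus lay on opposite sides of the control, and Rpa1, the large DNA-binding subunit, differed by 0.18 (SE 0.35) with overlapping groups.

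Fen1 and Lig1 finish the lagging strand, Fen1 by trimming flaps and Lig1 by sealing nicks. Lig1 was at 6.84, 7.23 and 7.20 in MPN mice, against 6.47 in the control mouse, a difference of 0.62 (SE 0.24, adjusted p = 0.427 by limma). Fen1 was at 5.56, 5.83 and 5.54 in MPN mice, against 5.39 in the control mouse. Neither overlapped the control, but the step of Fen1 was 0.26 (SE 0.20), about that of the background genes.

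Nucleotide supply held the largest difference of the 44 genes. Rrm2, the small subunit of ribonucleotide reductase and the one made in S phase, was at 7.64, 7.45 and 7.77 in MPN mice, against 5.69 in the control mouse. That is a 3.82-fold difference (log2 1.93, SE 0.20, adjusted p = 0.112 by limma), and each MPN mouse was at least 1.76 above the control mouse. Rrm1, the large subunit of the same enzyme, was at 5.68, 8.17 and 8.47 in MPN mice, against 6.76 in the control mouse. The MPN mice were tight for Rrm2 and split for Rrm1, with mouse 1 below the control mouse and the other two above it.

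Tyms, thymidylate synthase, was at 6.46, 7.39 and 7.09 in MPN mice, against 5.98 in the control mouse, a difference of 1.00 (SE 0.45, adjusted p = 0.443 by limma). Tk1, the thymidine salvage kinase, gave different answers by probe set. The probe set with the higher mean read 7.41, 7.05 and 7.59 in MPN mice, against 7.19 in the control mouse, a difference of 0.16 (SE 0.28). The other read 7.05, 6.90 and 7.96 in MPN mice, against 6.32 in the control mouse, a difference of 0.98, with no overlap. The mean of the Tk1 probe sets gave 0.573, so the size for Tk1 depends on the probe set.

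The cyclins that start S phase with Cdk2 showed little. Ccne1 was at 5.19, 5.36 and 5.22 in MPN mice, against 4.96 in the control mouse. Ccne2 was at 5.99, 4.65 and 6.44 in MPN mice, against 5.65 in the control mouse. Ccne1 lay near the background limit with a difference of 0.30 (SE 0.16), and the groups overlapped for Ccne2. Uhrf1, which brings the maintenance DNA methyltransferase to newly copied DNA, was at 8.43, 6.59 and 5.94 in MPN mice, against 5.83 in the control mouse. Its difference of 1.15 (SE 1.15) came mostly from MPN mouse 1.

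Spread between the MPN mice was wider in the replication genes than in the array as a whole. The SD over the 3 MPN mice was above 1 in 11 of the 44 genes (25%), against 7.43% of all genes and 11.9% of genes above background. The 11 were Orc6, Gins1, Gins4, Pola1, Prim1, Pold3, Rfc1, Rfc3, Rfc4, Rrm1 and Uhrf1. In 5 of the 44 (Orc6, Gins1, Gins4, Prim1 and Rrm1, 11.4%) 1 MPN mouse was at least 2-fold above the control mouse and another at least 2-fold below it, against 1.3% of all genes. None of the 6 helicase genes was among the 11. A wide spread was not particular to these genes. The SD was above 1 in 33.3% of mitosis genes, 17.4% of other replication genes and 17.9% of S phase entry regulators. The share at least 2-fold from the control mouse on both sides was 2.56%, 6.52% and 7.69% in those lists.

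**Figure D2:**
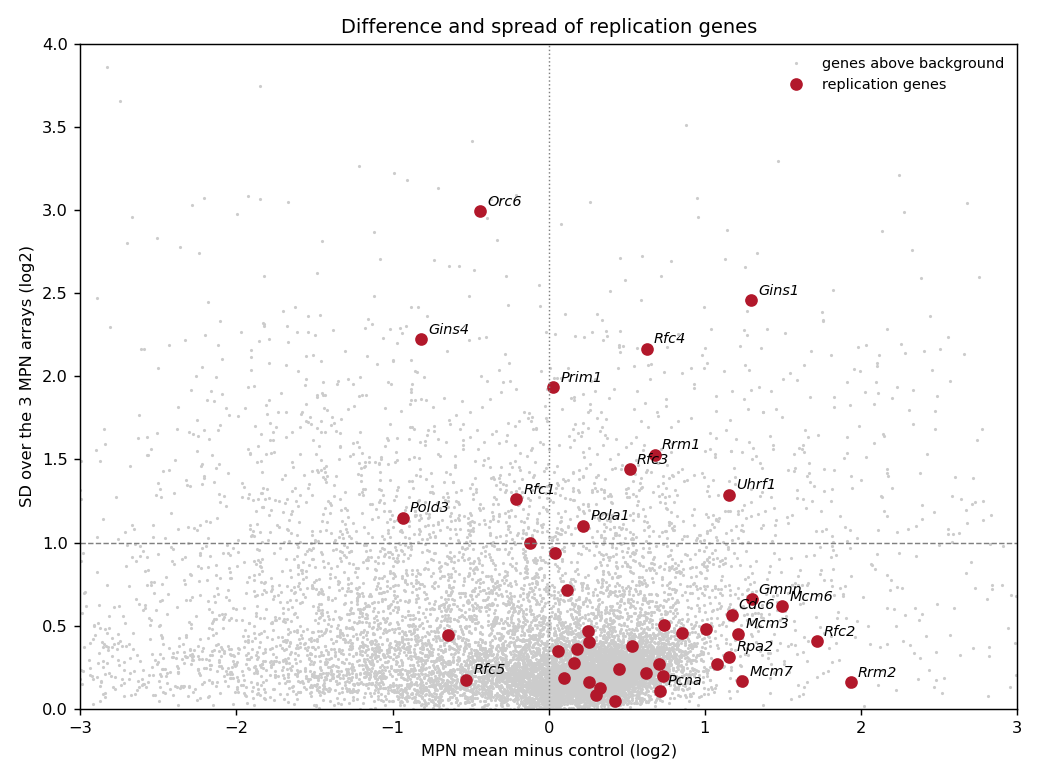
SD over the 3 MPN arrays (vertical axis, log2) against the MPN mean minus the control (horizontal axis, log2), for the 44 replication genes (red) and all genes above background (grey); genes beyond the axes are not drawn and the dashed line marks an SD of 1. The helicase genes, Pcna, Rfc2 and Rrm2 lie to the right of 0 with an SD under 1, while 11 genes lie above the dashed line on both sides of 0.

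The MPN mice were not alike in the level of these genes. The median difference from the control was 0.467 in MPN mouse 1, 0.447 in MPN mouse 2 and 0.763 in MPN mouse 3. Over all genes it was 0.202, 0.209 and 0.0752 in the same order. Above the control were 32, 28 and 39 of the 44 genes in these mice, against 12943, 12921 and 11605 of all 19938 genes. In MPN mouse 2 that share was close to the share of all genes. At least 2-fold above the control were 9, 11 and 18 of the 44, against 1096, 1183 and 1008 of all genes. At least 2-fold below it were 5, 6 and 0, against 2436, 2441 and 1695 of all genes. MPN mouse 3 had the highest value of the 3 MPN mice in 22 of the 44 genes, against 4107 of all 19938 genes, and the lowest in 5 of the 44, against 10507 of all genes.

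Other genes of DNA replication, from a second list of 46 measured genes that the first does not hold, were not higher as a set. Their median difference was 0.203, close to the 0.179 of all genes, and limma's adjusted test called 0 of them. On every MPN array 14 of the 46 were higher (30.4%) and 9 were lower (19.6%), against 46.8% and 21.1% of all genes. The largest difference was that of Rnaseh2c, a subunit of the enzyme that removes ribonucleotides from DNA, at 9.74, 10.02 and 8.71 in MPN mice, against 7.61 in the control mouse. Dbf4, the activator of the Cdc7 kinase that fires origins, was at 7.27, 6.05 and 7.02 in MPN mice, against 5.32 in the control mouse. For both genes every MPN mouse was above the control mouse.

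Chaf1b, a subunit of the histone chaperone that works behind the fork, was at 5.15, 7.78 and 6.29 in MPN mice, against 4.82 in the control mouse. Dck, a nucleoside salvage kinase, was at 6.30, 6.09 and 7.49 in MPN mice, against 5.34 in the control mouse. At an unadjusted limma p under 0.05, 2 of the 46 were higher (4.35%) and 2 lower (4.35%), against 3.97% and 8.63% of all genes. Orc3, a subunit of the origin recognition complex chosen after its values were seen, was lower, at 6.56, 6.41 and 6.26 in MPN mice, against 7.66 in the control mouse.

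Regulators of S phase entry lay on both sides of the control, with a median difference of 0.0591 over 39 genes and 0 called by limma's adjusted test. At an unadjusted p under 0.05, 5 were higher (12.8%) and 3 lower (7.69%), against 3.97% and 8.63% of all genes. E2f8, a repressor that E2F itself induces in S phase, was at 8.10, 8.28 and 7.61 in MPN mice, against 5.51 in the control mouse, a difference of 2.48 (SE 0.34, adjusted p = 0.146 by limma). E2f1, an activator of replication genes, was at 5.79, 5.97 and 6.30 in MPN mice, against 4.92 in the control mouse. Every MPN mouse was above the control mouse for both.

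Ccnd1, a D-type cyclin that links growth signals to the cell cycle, was at 5.77, 5.54 and 5.82 in MPN mice, against 7.58 in the control mouse, a difference of -1.87 (SE 0.20, adjusted p = 0.112 by limma). Ccnd2, a related cyclin, was at 6.06, 6.86 and 6.56 in MPN mice, against 8.19 in the control mouse. Myc, a growth regulator, was at 4.66, 6.89 and 6.18 in MPN mice, against 7.58 in the control mouse. Each MPN mouse was below the control mouse for these 3 genes, the opposite side from the helicase genes.

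Mitosis genes, which act after replication, had a larger median difference than the replication genes, 0.854 over 39 genes. Of these, 26 were higher on every MPN array (66.7%) and 0 lower, against 46.8% and 21.1% of all genes. At least 2-fold higher on each were 6 (15.4%), against 1.13% of all genes, and limma's adjusted test called 0. Cks2, a partner of mitotic Cdk1, was at 10.02, 9.34 and 9.91 in MPN mice, against 7.04 in the control mouse. Top2a, the topoisomerase that untangles replicated chromosomes, was at 8.73, 9.86 and 9.95 in MPN mice, against 7.63 in the control mouse. Mki67, the gene of the proliferation antigen Ki-67, was at 7.25, 8.54 and 9.48 in MPN mice, against 6.89 in the control mouse. The groups did not overlap for these genes, and by array the mitosis median was 0.468, 0.906 and 1.31 in MPN mice 1, 2 and 3. No test was made of the difference between the lists.

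**Figure D3:**
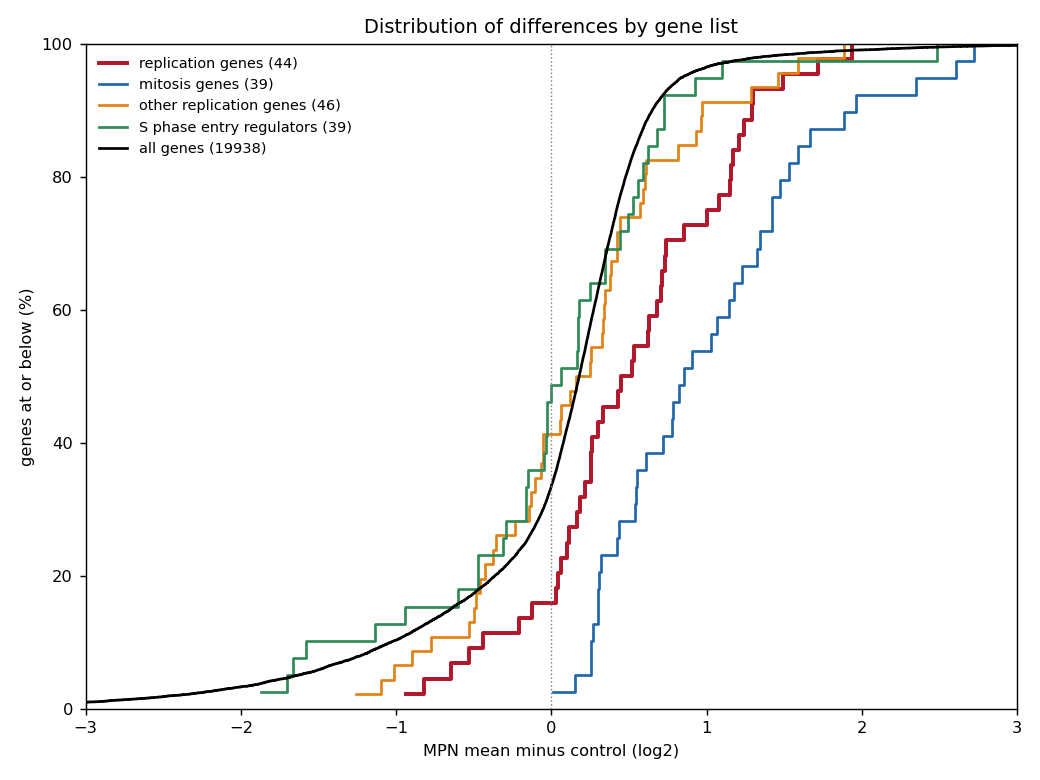
Share of genes (vertical axis, %) with an MPN mean minus control at or below each value (horizontal axis, log2, drawn between -3 and 3), for the 44 replication genes, 3 related lists and all 19938 genes. The replication genes, with a median of 0.484, lie right of all genes (0.179), the mitosis genes (0.854) lie further right, and the other replication genes (0.203) and S phase entry regulators (0.0591) follow all genes more closely at their middle.

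Markers of blood cells were higher on the same arrays as the replication genes. Of 13 granulocyte precursor genes, 13 were higher on every MPN array, against 46.8% of all genes. Their mean level was 9.57, 9.52 and 10.28 in MPN mice, against 7.01 in the control mouse. Of 18 pan-leukocyte genes, 17 were higher on every MPN array (94.4%), with a mean level of 8.82, 8.45 and 9.13 in MPN mice, against 6.59 in the control mouse. Mpo, a granule enzyme of dividing myeloid precursors, was at 11.61, 11.87 and 12.15 in MPN mice, against 10.45 in the control mouse. MPN mouse 3, which had the highest median difference of the replication genes, also had the highest median difference of the granulocyte precursor genes, 3.57, against 2.37 and 2.86 in MPN mice 1 and 2. The part of these cells in the values of the replication genes was not tested.

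Mesenchymal stromal genes were lower on these arrays. Of 20, 17 were lower on every MPN array (85%), against 21.1% of all genes. The mean level of the 20 was 6.13, 5.57 and 6.10 in MPN mice, against 9.04 in the control mouse. Mature neutrophil genes, from cells that no longer divide, had 11 of 12 higher on every MPN array (91.7%), against 46.8% of all genes. Their mean level was 8.79, 7.81 and 8.93 in MPN mice, against 6.17 in the control mouse. Myb, a factor of dividing progenitors, was at 7.48, 8.83 and 9.25 in MPN mice, against 6.68 in the control mouse. It had the largest difference of the 11 stem and progenitor genes. Of the 11, 6 were higher (54.5%) and 2 lower (18.2%) on every MPN array, against 46.8% and 21.1% of all genes. The median difference of the 11 was 0.181, against 0.179 over all genes. The part of these cells, too, was not tested.

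Markers of other dividing or resident cells of marrow differed less by the median of each list, which was between 0.192 and 0.757. Klf1, which defines erythroid precursors, was under the background limit at 5.03, 5.03 and 4.47 in MPN mice, against 4.44 in the control mouse, and of 12 erythroid genes 4 were higher and 2 lower on every MPN array, with a mean level of 5.34, 5.89 and 5.29 in MPN mice, against 5.15 in the control mouse. Vpreb1, a gene of dividing B cell precursors, was at 4.36, 11.26 and 4.80 in MPN mice, against 9.64 in the control mouse, high in MPN mouse 2 and the control mouse alone. Of 13 B cell genes 8 were higher on every MPN array, with mean levels of 4.996, 5.50 and 4.71 in MPN mice, against 5.07 in the control mouse. The corresponding counts were 9 of 13 for monocytes and macrophages, 6 of 7 for megakaryocytes, 8 of 12 for T and natural killer cells, 12 of 14 for endothelium and 5 of 8 for Schwann cells, against 46.8% of all genes. In the same order, 8, 7, 4, 8 and 5 genes of these lists had a group mean above the background limit. Single genes differed more than their lists, such as Lyz2 (3.61), S100b (2.84) and Nkg7 (2.30), which were higher, and Egr2 (-2.24), which was lower.

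**Figure D4:**
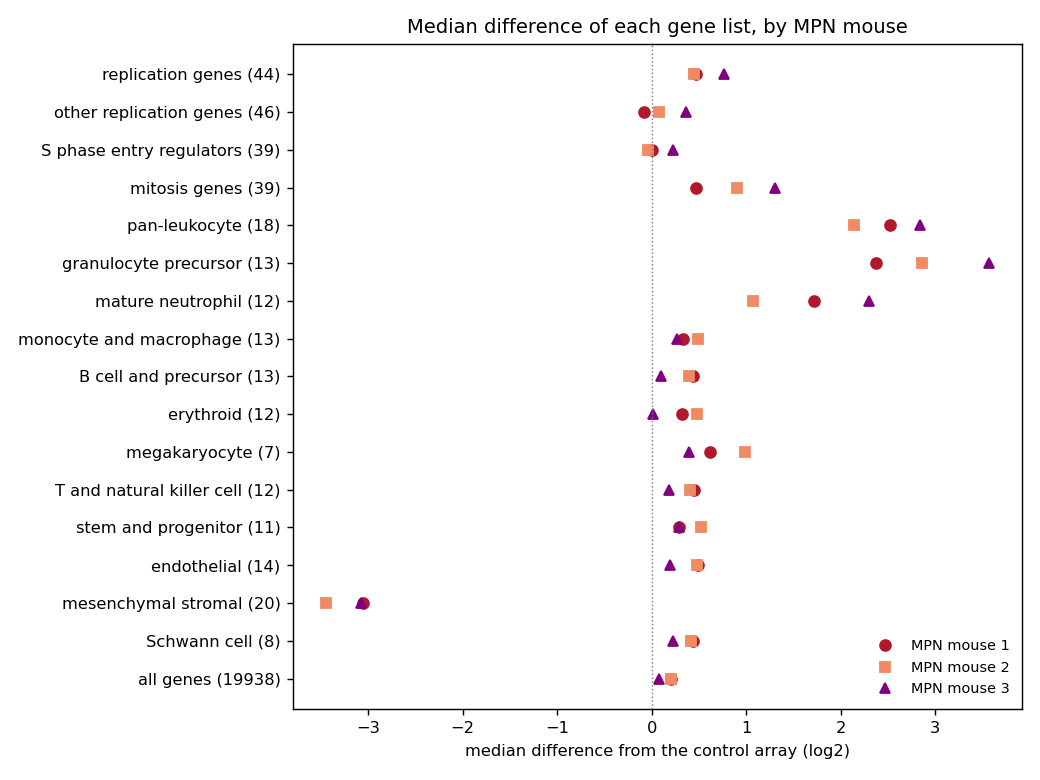
Median log2 difference from the control array (horizontal axis) of each gene list, 1 symbol per MPN mouse, with the number of measured genes in brackets. The replication genes sit at 0.467, 0.447 and 0.763 in MPN mice 1, 2 and 3, between the granulocyte precursor genes (2.37, 2.86 and 3.57) and the mesenchymal stromal genes (-3.05, -3.44 and -3.07).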

How the data were processed

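RNA of 3 MPN mice and 1 control mouse was measured on Affymetrix mouse gene arrays. The authors deposited 1 log2 value per probe set and array, which per the submitters' processing notes come from RMA, the robust multi-array average, with version, probe set definition and build not stated there. RMA brings the arrays to one distribution and compresses differences near background. The labels' protocols name a Picopure kit for RNA isolation, and the design text names NuGEN Ovation amplification. Arrays have no read depth, and their number limits the precision.

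Of 35556 probe sets, 21789 carry 1 symbol in the platform's gene table, 1621 carry several, and 12146 are unnamed here. RefSeq (GRCm38.p6) held the gene identifiers of 21698, and 0 symbols changed. Keeping the probe set of highest mean left 19938 genes, of which 11966 had a group mean above background. Limma 3.58.1 in R 4.3.3 tested all genes together with lmFit and eBayes, two-sided, and p-values were adjusted over all genes by Benjamini-Hochberg at a threshold of 0.05. The 2 residual degrees of freedom come from the MPN arrays, and the lone control was taken to vary like them. Limma offset the zero variance of 134 genes with identical values in the MPN mice. SE belongs to the fitted difference and SD to the 3 MPN values. The limma fit was also run on simulated data in which the control was drawn with the spread of the MPN mice. That run therefore cannot test whether the lone control varies like them. Promoter windows were searched with Python 3.11.15. All 44 genes could be named, and of each other list up to 4 genes with the largest difference plus a few preset ones. The members, lists and alternatives were chosen with earlier results of these data known. Each MPN mouse was left out in turn, and the probe set choice, background filter, scaling, variance prior and minimum difference were varied.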

Additional observations from a re-analysis of the deposited data

How the results depend on the processing

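No paired analysis was possible because the control group is 1 mouse without a number. Limma's adjusted test called 0 of the 44 replication genes under each of the 12 alternatives. Over all genes it called 95 after cyclic loess and 153 with the arrays aligned on the receptor genes, and 0 under the others. The lowest adjusted p of any of them was 0.0576, for Rrm2 after cyclic loess, and over the alternatives that of Rrm2 ran from 0.0576 to 0.467. Leaving out 1 MPN mouse in turn gave a median difference of 0.325 to 0.553, 23 to 31 genes higher on every MPN array, 3 to 8 genes at least 2-fold higher on each and 5 to 8 genes higher at an unadjusted p under 0.05. Over all genes the medians were 0.147 to 0.221 and the shares 50% to 56.9%, 1.87% to 1.9% and 2.13% to 8.98%. The shares of all genes at 56.9% and 8.98% are those without MPN mouse 3, where the replication genes had 52.3% and 11.4%. Repeated quantile normalisation gave 5 genes at least 2-fold higher on each array. The number of genes higher at an unadjusted p under 0.05, 7 as reported, was 4 (9.09%, against 5.2% of all genes) with an intensity trend in the variance prior and 3 (6.82%, against 0.913%) with a minimum difference of 0.5. With the arrays aligned on the median of the chemosensory receptor genes that number was 3, and the median difference was 0.228. The cause was not tested.

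Of the 44 differences, 28 kept their sign under each alternative and 16 did not. As none of the 44 had been called, the calls do not set the 16 apart. The background filter, variance prior and minimum difference leave each fitted difference as it was, so they could not change a sign. After repeated quantile normalisation the difference was -0.0355 for Orc1, -0.0174 for Pole and 0.0268 for Rfc1. After cyclic loess it was -0.15 for Orc1, -0.0335 for Pola2, -0.11 for Pole and -0.10 for Ccne2. With one median over all genes it was -0.0156 for Prim1 and -0.0047 for Ccne2. Aligned on the chemosensory receptor genes it was -0.20 for Orc1, -0.0018 for Gins3, -0.0382 for Pola1, -0.14 for Pola2, -0.23 for Prim1, -0.16 for Pole, -0.0030 for Pole2, -0.0732 for Rpa1, -0.0938 for Tk1 and -0.22 for Ccne2. With 1 MPN mouse left out, the range was -0.14 to 0.17 for Orc1, -2.17 to 0.48 for Orc6, -1.90 to 0.32 for Gins4, -0.40 to 0.65 for Pola1, -0.26 to 0.44 for Pola2, -0.57 to 1.15 for Prim1 and -0.70 to 0.22 for Prim2. It was -0.59 to 0.52 for Rfc1, -0.31 to 1.01 for Rfc3, -0.62 to 1.33 for Rfc4, -0.0234 to 0.31 for Rpa1 and -0.33 to 0.56 for Ccne2.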
